A study of Gasterosteus aculeatus with 12 samples.

Results

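Chromosome XXI of the threespine stickleback, Gasterosteus aculeatus, carried 662 of the 35808 peaks of accessible chromatin in a list from primary spermatocytes. Its members were all peaks that the list placed on chromosome XXI of the assembly gasAcu1, with no filter on their values. The peaks came from ATACseq of wild-derived marine and freshwater strains of the River Tyne in Scotland, with 3 marine and 3 freshwater libraries. Each library was made from the pooled testes of 3 adult males, taken late in a winter light regime, and from 50000 primary spermatocytes that had been sorted by size and complexity. A library of naked DNA was prepared from each pool as a control. The authors merged the 6 ATAC libraries into 1 list, so that no peak has a value per pool, no value has a replicate error, and the ecotypes were not compared. The list holds positions and no expression, so the sorted cell type could not be checked against markers.

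In ATACseq a transposase cuts DNA that is not wrapped tightly in nucleosomes and inserts sequencing adapters there, so that open sites such as promoters and enhancers gather reads. Primary spermatocytes are the male germ cells in which homologous chromosomes pair and exchange segments by crossing over. An inversion holds a stretch of chromosome in the reverse orientation, and crossovers within it rarely yield balanced gametes in fish that carry one copy of each orientation. Marine and freshwater sticklebacks are known to differ by such an inversion on chromosome XXI, which lies at about 5.8 to 7.5 Mb. In the study's families, parents heterozygous for it outnumbered homozygous ones and were more numerous than the hybrid parents. Orientation therefore did not follow ecotype alone. In heterozygotes the study found no recombination within the inversion and an increase on its right flank. The orientation carried by the males of the 6 pools was not analysed here, and a peak list on reference coordinates cannot show it, so that the interval is defined by position alone.

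Chromosome XXI had the fewest peaks per Mb of the 20 autosomes, the chromosomes other than the sex chromosome XIX. Its length, taken as the end of its last peak, was 11.7 Mb and the shortest of the 20. The 662 peaks corresponded to 56.5 per Mb, against 61.5 on chromosome XIII, the next lowest, and 94.9 on chromosome XI, the highest. The other 19 autosomes averaged 73.0 ± 7.20 peaks per Mb (SD, n = 19 autosomes). Against their pooled density the ratio was 0.778, with a 95% interval of 0.720 to 0.840 that covers counting error only, since neighbouring peaks are not independent. Chromosome XXI was chosen with its low density known, so this interval is not a test of it. The peaks covered 5.50% of the chromosome, also the lowest of the 20 values, where the others ranged from 6.27% on chromosome XVI to 9.72% on chromosome XI.

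The lower density was found among weak and strong peaks alike. Each peak has a fold enrichment, the ratio of reads at the summit to the background that the peak caller estimated, and a value of at least 5 is used below to mark strong peaks. Strong peaks numbered 279, or 23.8 per Mb, the lowest of the 20 autosomes by a small margin, since chromosome XVI had 23.9 and chromosome II had 24.0. The 383 weaker peaks corresponded to 32.7 per Mb, above chromosome XIII with 32.5 and below the other 18 autosomes. The strong peaks made up 42.1% of the peaks of chromosome XXI (95% Wilson interval 38.4% to 45.9%), against 40.3% of the 26797 peaks on the other 19 autosomes. A q-value of at most 1e-10 was reached by 86.0% of its peaks, against 83.4% on the other autosomes. Chromosome XXI therefore stood at the low end in the number of peaks per Mb, while its share of strong peaks was the 14th lowest of 20.

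**Figure D1:**
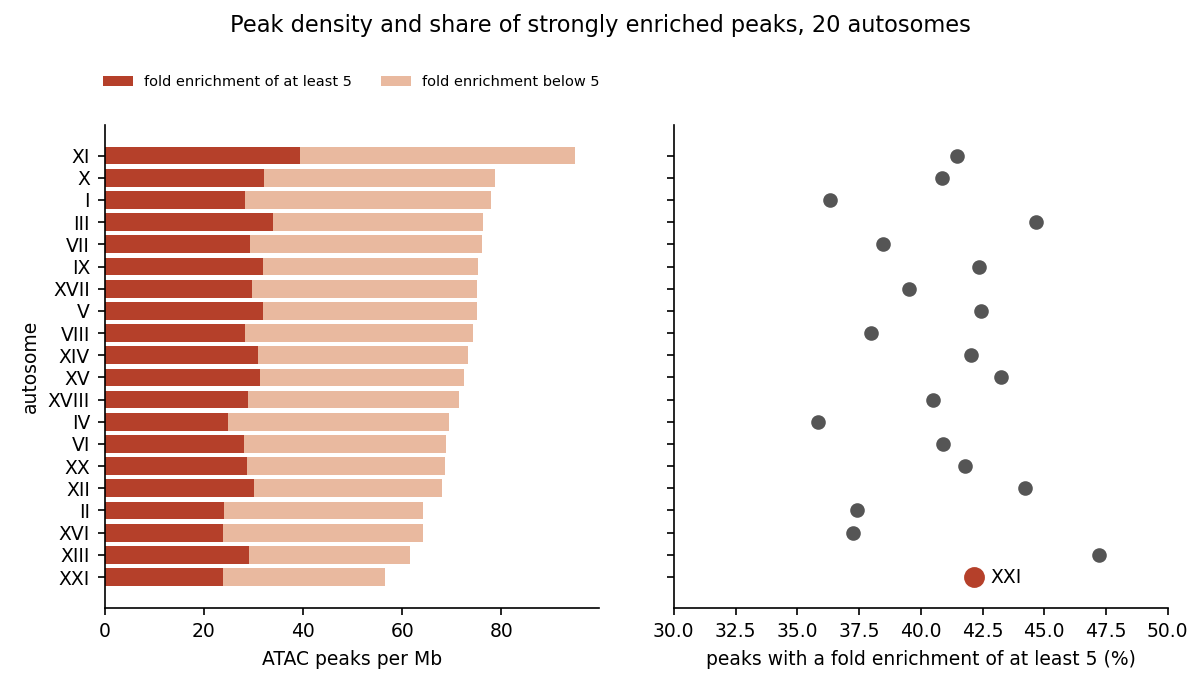
Peaks per Mb (left, bars, split at a fold enrichment of 5) and the percent of peaks at a fold enrichment of 5 or more (right, points; the axis starts at 30%) for the 20 autosomes, ordered by density. Chromosome XXI has the shortest bar, at 56.5 peaks per Mb, and a share of 42.1%, between 35.8% on chromosome IV and 47.2% on chromosome XIII.

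Single peaks of chromosome XXI resembled those of the other autosomes in strength and width. Fold enrichments had a median of 3.61 and quartiles of 2.13 and 9.55, and the medians of the other autosomes ranged from 3.07 to 4.47. Widths had a median of 722 bp and quartiles of 332 and 1427 bp, within the range of 637 to 868 bp on the others. Strong peaks were wider, with a median of 1490 bp, than peaks below a fold enrichment of 5, with a median of 386 bp. The first of these medians was the second lowest of the 20 autosomes, and the other was the third lowest. The top class, a fold enrichment of 20 or more, held 24 peaks of chromosome XXI (3.63%) and 3.55% of the peaks on the other autosomes.

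Spacing differed more than strength. The gap from one peak to its neighbour had a median of 6452 bp, the widest of the 20 autosomes, where the others ranged from 3954 bp on chromosome XI to 6237 bp on chromosome XIII. The distance between neighbouring strong peaks had a median of 15269 bp and ranked 9th from the lowest. Stretches of at least 100 kb without a peak numbered 16 and made up 19.1% of the chromosome, the highest share of the 20, against 5.04% to 17.7% on the others. The longest of these, 257 kb from 885790 to 1142885, ran between a peak from 885590 to 885789 with a fold enrichment of 2.47 and a peak from 1142886 to 1143946 with 3.82. The next, 176 kb from 5396771 to 5573256, followed the third widest peak of the chromosome, and the peak beyond it, from 5573257 to 5573701, had a fold enrichment of 2.23. The third, 174 kb from 3999981 to 4173804, lay between weak peaks from 3999666 to 3999980 and from 4173805 to 4174022, with fold enrichments of 1.89 and 1.41. Longer gaps than 257 kb occurred on 6 other autosomes, up to 441429 bp on chromosome XIII. Tight spacing was of ordinary frequency, with 14.1% of neighbouring peaks less than 500 bp apart, the 9th lowest of the 20 shares. Peaks with no other within 50 kb numbered 9 of 662. The other autosomes had medians of 11 such peaks and 1253 peaks in all. Relative to its number of peaks, chromosome XXI thus had more of them than these medians. Chromosome XIII, the next lowest in density, was close to it with 16 of 1235, and a count of 9 is small.

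The chromosome was sparse before its midpoint and denser beyond it. Of the 16 long gaps, 10 were centred before 5.8 Mb, 3 between 5.8 and 7.5 Mb and 3 beyond 7.5 Mb, which corresponds to 1.72, 1.76 and 0.712 per Mb. Density was 46.6 peaks per Mb before the midpoint, the lowest of the 20 autosomes, and 66.4 per Mb after it, the 6th lowest. Their ratio of 1.42 was the fourth highest of the 20, from 0.627 on chromosome XV to 1.80 on chromosome VIII. Strong peaks followed the same course, at 19.3 and 28.3 per Mb, and their ratio of 1.47 was the third highest. The first 2 Mb held 43.0 peaks per Mb, where only chromosome II was lower with 41.5, and the last 2 Mb held 79.5 per Mb, the fourth lowest of the 20.

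In steps of 0.5 Mb, density varied less over chromosome XXI than over the pooled steps of the 19 other autosomes. The pooled spread also takes in differences between chromosomes, and the spread of these steps within each was not computed. The 23 complete steps of chromosome XXI held a median of 58.0 peaks per Mb and a mean of 55.5 ± 21.7 (SD over 23 steps). The 729 steps of the other autosomes had a mean of 71.3 ± 38.7, which corresponds to SDs of 39.2% and 54.2% of the mean. The sparsest step of chromosome XXI ran from 5.0 to 5.5 Mb, with 12 peaks or 24.0 per Mb and a median gap of 29840 bp. The 6 strong peaks among these 12 gave it the highest median fold enrichment of the steps of chromosome XXI, 6.96, where steps of other autosomes reached 13.1. The densest complete step ran from 11.0 to 11.5 Mb, with 48 peaks or 96.0 per Mb, of which 18 were strong. Under 40 peaks per Mb lay 7 of the 23 steps (30.4%), of which 6 began before 5.8 Mb, and on the other autosomes 15.4% of steps were as sparse. At least 80 per Mb were found in 4 of the 23 steps (17.4%), against 33.9% on the other autosomes. These 40 and 80 per Mb marks were chosen after the values were seen.

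The steps with the most accessible bases lay at the approximate boundaries of the inversion interval, one across the left boundary and one beyond the right. From 5.5 to 6.0 Mb, 44 peaks covered 9.95% of the bases, and from 7.5 to 8.0 Mb, 44 peaks covered 10.1%, the highest share on the chromosome and the step with the most strong peaks, 23. The first of these steps reaches into the interval, with 3 summits between 5.8 and 5.9 Mb and 7 between 5.9 and 6.0 Mb. Between them, the step from 6.0 to 6.5 Mb held 16 peaks over 2.69% of its bases, the step from 6.5 to 7.0 Mb held 25 over 5.15%, and the step from 7.0 to 7.5 Mb held 33 over 6.31%. The smallest share, 2.32%, was that of the step from 4.0 to 4.5 Mb, so the low value within the interval was not the lowest on the chromosome. Nor were high values confined to the boundaries, since 9.19% was covered from 11.0 to 11.5 Mb. Steps of the other autosomes had 7.26 ± 4.15% of their bases covered (SD over 729 steps) and reached 35.7%. The strong peaks' share was smallest at both ends. It was 20.7% in the first complete step and 16.7% among the 24 peaks beyond 11.5 Mb, where the last 0.211 Mb reached 114 peaks per Mb. It was largest at 2.0 to 2.5 Mb, at 52.9% of 17 peaks. The median width ran from 386 bp in the first step to 1108 bp at 10.0 to 10.5 Mb.

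**Figure D2:**
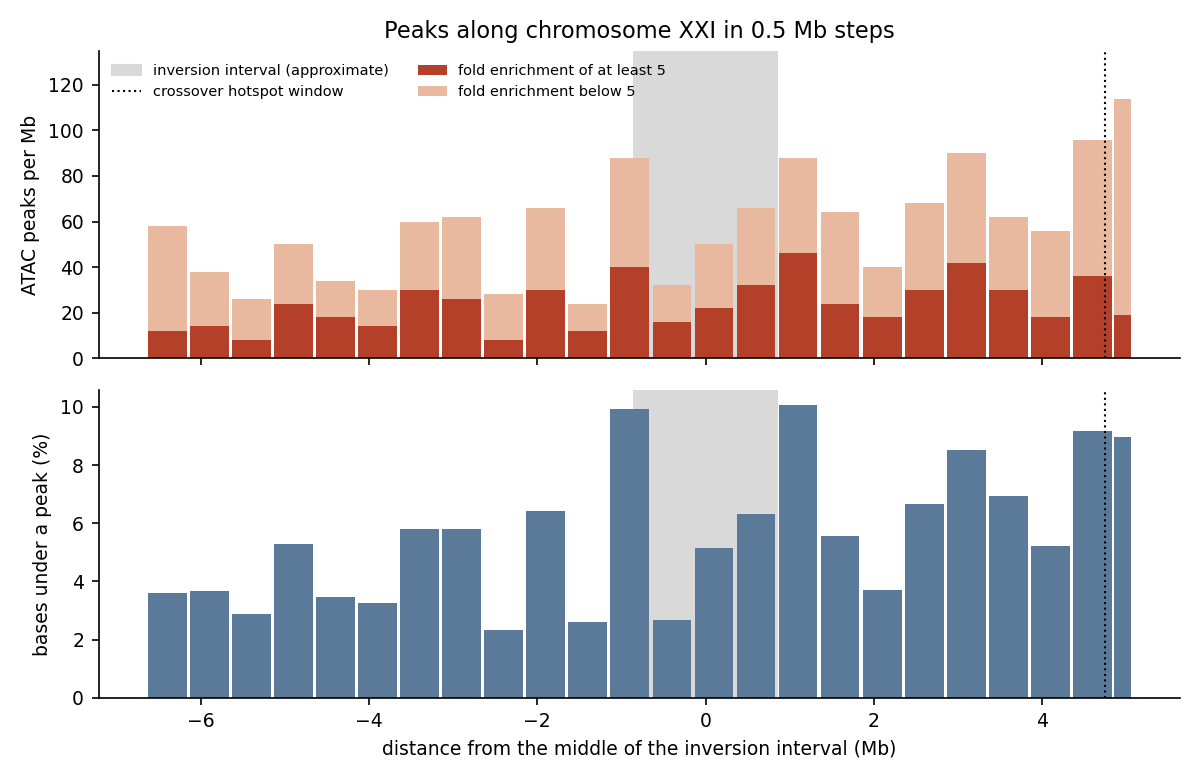
Peaks per Mb, split at a fold enrichment of 5 (top), and percent of bases under a peak (bottom) in steps of 0.5 Mb along chromosome XXI, by distance from the middle of the inversion interval in Mb; the last bar is a partial step of 0.211 Mb. Bars are low on the left, where the sparsest step has 24.0 peaks per Mb, and tall across the left edge of the grey interval and beyond its right edge, where 9.95% and 10.1% of bases lie under a peak. The last bars on the right are also tall, at 9.19% and 8.98%.

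The interval from 5.8 to 7.5 Mb held 84 peaks by summit, 49.4 per Mb, against 57.7 per Mb for the 578 peaks on the rest of the chromosome. The ratio was 0.856, and its 95% interval of 0.681 to 1.08 (from a Wilson interval on 84 of 662 peaks, counting error only) included equal density. The ratio rested on the boundaries, which are approximate, since moving both outward by 0.1 Mb brought it to 1.01 and moving both inward brought it to 0.792. Stretches of the same length on either side had 93 peaks (54.7 per Mb, from 4.1 to 5.8 Mb) and 105 peaks (61.8 per Mb, from 7.5 to 9.2 Mb). Over the whole chromosome the interval sat between a sparser part before it, 46.9 per Mb, and a denser part beyond it, 72.7 per Mb. Of 101 windows of this length along chromosome XXI, 43 had as few peaks per Mb or fewer, in a range from 32.9 to 77.1. These windows overlap each other, and both counts include the interval itself.

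Split at a fold enrichment of 5, and with the boundaries as given, the interval was lower in weak peaks and close to the rest in strong ones. This difference was not tested, and among strong peaks the comparison varied with the class of fold enrichment. The interval's 40 strong peaks corresponded to 23.5 per Mb, against 23.9 per Mb on the rest. The ratio was 0.986, with a 95% interval of 0.706 to 1.38 that covers counting error only. The 44 weaker peaks corresponded to 25.9 per Mb, against 33.9 per Mb, a ratio of 0.764. No interval was computed for this ratio, so it does not show weak peaks to be sparser beyond counting error. Strong peaks were therefore 47.6% of the peaks in the interval (95% Wilson interval 37.3% to 58.2%) and 41.3% on the rest (37.4% to 45.4%), and these intervals overlap. The shares were 43.0% in the left stretch and 46.7% in the right one. With the boundaries moved by 0.1 Mb, the share was 49.1% in the widened interval and 52.2% in the narrowed one. The densities of strong and weak peaks relative to the rest were not computed for these moved boundaries. At a fold enrichment of 15 or more, the interval held 8 peaks or 4.71 per Mb, against 6.19 per Mb on the rest, a ratio of 0.760. The left and right stretches had 7.06 and 7.65 peaks per Mb at a fold enrichment of 15 or more. The median fold enrichment of 4.07 in the interval lay above the 3.56 of the rest and below both flanks, with 4.11 and 4.33, and its ratio to the rest ranged from 0.974 to 1.73 over the alternatives. The median width of 704.5 bp was close to the 726 bp of the rest. The order of these medians depended on the peaks taken in, as given under the processing alternatives. Peaks covered 4.81% of the interval and 5.62% of the rest.

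Set beside stretches of the same length elsewhere, the interval was in the lower part of the range. The other 19 autosomes gave 206 complete windows of 1.7 Mb, with 68.8 ± 25.9 peaks per Mb (SD over 206 windows) and a median of 63.8. Of these, 42 (20.4%) had 49.4 peaks per Mb or fewer, and 65 (31.6%) had as few strong peaks per Mb or fewer. The first share fell to 10.5% with the interval narrowed by 0.1 Mb on each side and to 11.7% with peaks less than 500 bp apart joined, and rose to 30.4% with the interval widened. Among the 153 windows centred in the middle 70% of their chromosomes, where the interval also lies, the count was 34 (22.2%). Taken relative to the rest of its own chromosome, 99 of the 206 windows (48.1%) had a ratio of 0.856 or less. The share of strong peaks was matched or exceeded in 56 of 206 windows, and the median fold enrichment in 87.

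**Figure D3:**
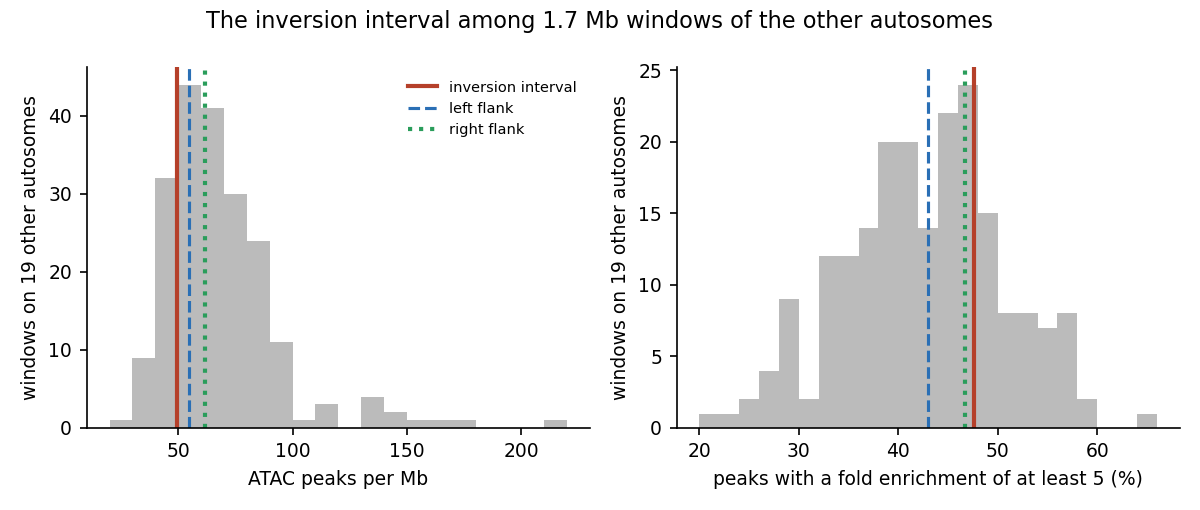
Histograms of peaks per Mb (left) and percent of peaks at a fold enrichment of 5 or more (right) over 206 windows of 1.7 Mb on the 19 other autosomes; lines mark the inversion interval and its flanks of the same length. The interval, at 49.4 peaks per Mb and 47.6%, falls inside both distributions, with 42 windows at or below its density and 56 at or above its share.

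Within the interval the peaks were gathered toward its right end. Its first 0.85 Mb held 31 peaks (36.5 per Mb), and its last 0.85 Mb held 53 (62.4 per Mb), with 16 and 24 strong peaks. All 3 of its gaps of at least 100 kb lay in the first portion, from 6018976 to 6160506 (142 kb), from 6185854 to 6286324 (100 kb) and from 6287241 to 6401287 (114 kb). In steps of 0.1 Mb, no summit lay between 6.3 and 6.4 Mb and 1 lay between 6.2 and 6.3 Mb. At the other end, 11 summits lay between 7.2 and 7.3 Mb, of which 8 were strong, with 13.3% of the bases under a peak, and 12 lay between 7.4 and 7.5 Mb.

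The highest fold enrichment of the chromosome lay near the right end of the interval. This peak, from 7335191 to 7337609 and 2419 bp wide, had a fold enrichment of 32.6 and shared the 5th rank among the 27459 peaks of all autosomes. Of the 206 complete windows of the same length on other autosomes, 3 held a peak as high or higher. The highest peaks of chromosomes I and XX, at 33.7 and 33.2, lay in end stretches outside these windows. The next highest peaks of the interval were close by, from 7272541 to 7273931 with 24.5 and from 7316272 to 7317615 with 22.9. The fourth and the fifth stood farther left, from 5962789 to 5966062 with 19.8 and from 6910726 to 6914184 with 19.8, and were the wider ones, at 3274 and 3459 bp. On the whole chromosome the peak of second highest fold enrichment, 30.9, lay just outside the interval from 7613044 to 7614650. The following 3 were at 9924349 to 9926595 with 28.3, 5138952 to 5141365 with 28.0, and 10018390 to 10019497 with 26.9. No gene was placed at any of them here.

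**Figure D4:**
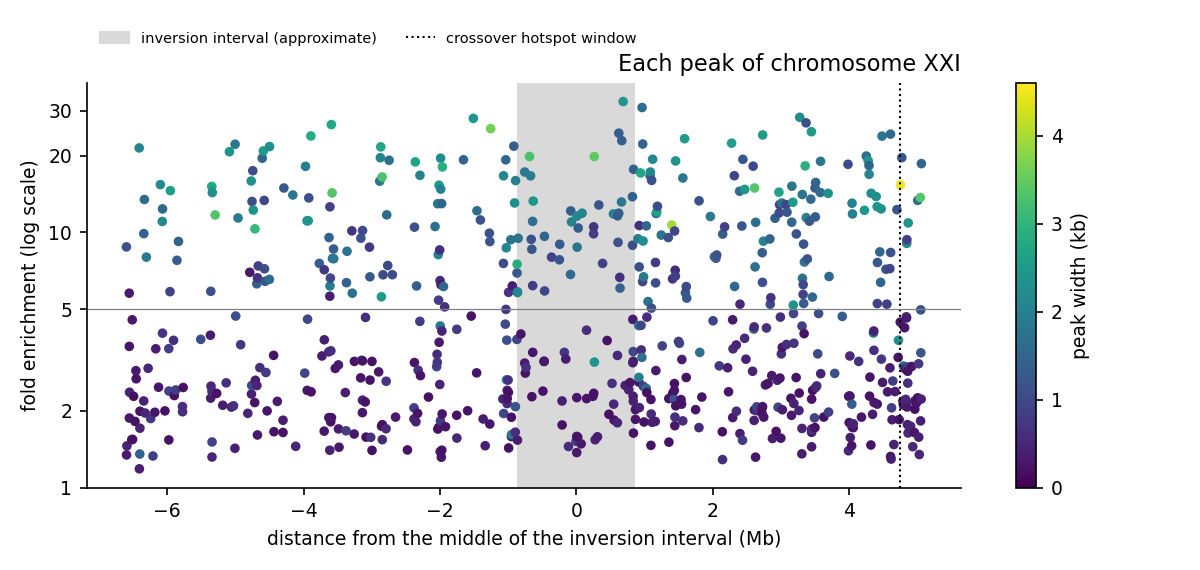
Fold enrichment (log axis) of each of the 662 peaks of chromosome XXI by distance from the middle of the inversion interval in Mb, coloured by peak width in kb; the line marks a fold enrichment of 5. The highest point, 32.6, lies in the right part of the grey interval, which shows few points left of its centre, and the widest peak (4506 bp, yellow) lies at the dotted hotspot window.

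Within 50 kb of each approximate boundary, most peaks lay on 1 side of it. These sides and the distances below hold only for the boundary coordinates as given. Before 5.8 Mb the last peak, from 5796714 to 5798429, had a fold enrichment of 9.49 and ended 1571 bp short of it, and the first after it, from 5837053 to 5837312, stood 37052 bp away with a fold enrichment of 4.00. Of 11 peaks within 50 kb of this boundary, 1 was inside the interval. At 7.5 Mb the order was the opposite, with 10 of 12 peaks within 50 kb inside. The last peak before it, from 7488834 to 7490224, had a fold enrichment of 17.7, and the first beyond, from 7517145 to 7517396, had 2.02. Of the 23 peaks within 100 kb of 7.5 Mb, 12 were inside, and of the 16 within 100 kb of 5.8 Mb, 3 were inside.

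A crossover hotspot, a short stretch where crossovers gather, was named in the study on chromosome XXI, in a window of 5 kb in which freshwater and hybrid fish differed in crossover counts. It lies at 11.4 Mb, at 97.3% of the chromosome's length and 306 kb before the end of the last peak, far from the inversion interval. The study counted crossovers there by ecotype over mothers and fathers together, whereas the peaks came from marine and freshwater males. The study reversed the marker order of some misoriented scaffolds before it placed crossovers. Whether this window lay on one of them was not given in the sources used here, so the window was placed by its coordinates as written.

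The widest peak of chromosome XXI overlapped this window. It ran from 11401370 to 11405875, 4506 bp, had its summit in the window and covered 3935 bp of it, or 78.7%. Of 27459 autosomal peaks, 172 (0.626%) were as wide or wider. A window overlaps wide peaks more readily than narrow ones, so this share is not the chance of meeting a peak so wide. The fold enrichment of this peak, 15.4, was less exceptional, ranking 67th of 662 on the chromosome. Cut into 2342 stretches of 5 kb, chromosome XXI had 603 (25.7%) touched by a peak and 2 covered as fully as the window. Contact with a peak was therefore common, and this degree of cover was not on that grid. The window lies in the densest complete step, from 11.0 to 11.5 Mb, with 96.0 peaks per Mb and 9.19% of bases covered. How many stretches a peak touched within that step was not computed. The 25.7% therefore describes the whole chromosome and not the surroundings of the window. A fixed grid splits some wide peaks, so the count of 2 may understate how often a freely placed window is covered as fully. The next widest peaks were elsewhere, from 8045903 to 8049886 (3984 bp, fold enrichment 10.7) and from 5393146 to 5396770 (3625 bp, fold enrichment 25.5).

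The peaks around the window were weak and strong. Within 10 kb there was 1 further peak, from 11399800 to 11400064, 239 bp to the left, with a fold enrichment of 4.46. On the right the nearest, from 11422783 to 11424028, stood 17478 bp away and had a fold enrichment of 19.6. Within 50 kb there were 10 peaks, 3 of them strong, and within 100 kb there were 21, of which 5 were strong. The latter share, 23.8% (95% Wilson interval 10.6% to 45.1%), did not separate from the 42.1% of the whole chromosome at this number of peaks. The first peak of the chromosome, from 52442 to 53609, had a fold enrichment of 8.78, and the last, from 11709704 to 11711180, had 18.6.

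**Figure D5:**
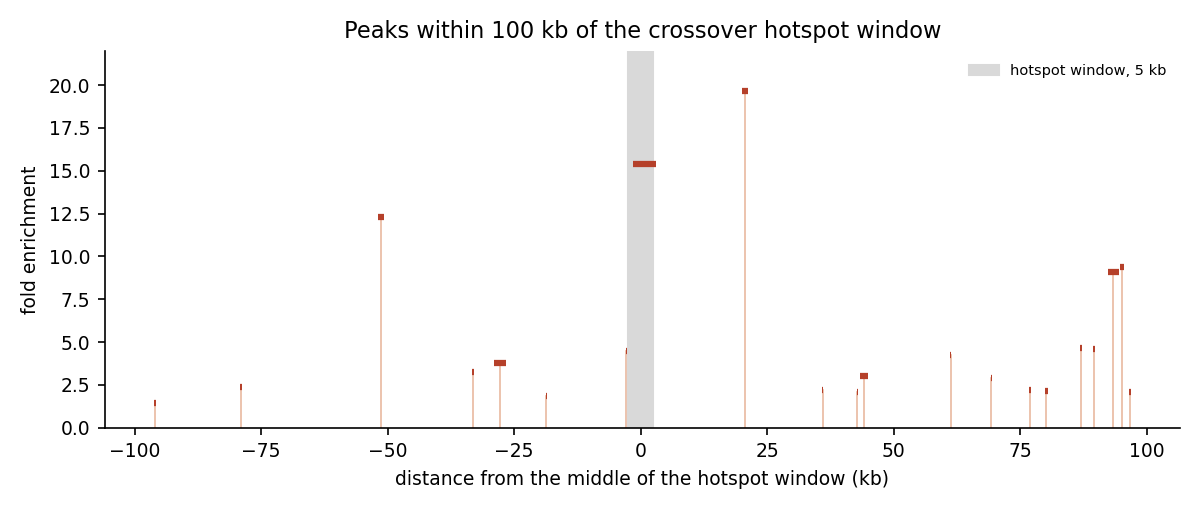
Fold enrichment of the 21 peaks within 100 kb of the hotspot window of chromosome XXI, by distance from the middle of the window in kb; horizontal marks span each peak's width and the grey band is the 5 kb window. The widest mark, 4506 bp at a fold enrichment of 15.4, lies over the window, and the tallest, at 19.6, lies to its right.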

How the data were processed

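The 6 ATACseq libraries had naked DNA controls from the same 6 pools. The authors mapped reads to gasAcu1, discarded mitochondrial reads and duplicates from PCR, brought libraries to a common depth by down-sampling and called peaks with MACS2 (reads extended to 200 bp). The aligner and the caller's background are not given in the sources used here, and the depth of each library was not analysed here. The deposited list gives each peak's fold enrichment (a ratio), −log10 q-value (all peaks at or below 0.05) and score, which was 10 times the −log10 q-value, cut to a whole number, in 100% of peaks. Peaks were assigned by summit, and coordinates count from 1. Chromosome XXI, the interval and the measures were chosen with earlier results of these data known, so every comparison is a description with no test; Wilson intervals cover counting error only. The peaks named are the 5 highest of the chromosome and of the interval, the 3 widest, the first, the last, and those beside the 3 longest gaps, the boundaries and the hotspot window. Alternatives kept strong peaks (fold enrichment of 5 or more) or those at a q-value of at most 1e-10, joined peaks less than 500 bp apart, moved boundaries by 0.1 Mb, left out the outer 15% of the chromosome or changed the windows. Counting was tested on simulated data. Genes, promoters, assembly gaps and sequences were left out, as the only annotation used here is of a different assembly. Values were computed in Python 3.11.15 with pandas 2.3.3, NumPy 2.4.6 and SciPy 1.17.1, and drawn with Matplotlib 3.10.9.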

Additional observations from a re-analysis of the deposited data

How the results depend on the processing

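Of 31 alternatives over 8 results, 26 stayed within the 95% interval of the value reported and 5 moved beyond it. The share of strong peaks on chromosome XXI was 49.0% rather than 42.1% among those at a q-value of at most 1e-10, which removes weak peaks. On the other autosomes this filter left 22340 of 26797 peaks. Their share of strong peaks under it was not computed, so 49.0% cannot be set against their unfiltered 40.3%. The share of windows on other autosomes at or below the density of the interval, 20.4%, became 31.6% for strong peaks, 11.7% with neighbouring peaks joined, 30.4% with the interval widened and 10.5% with it narrowed. Some values crossed 1 within their intervals. For the ratios of medians these intervals were wide, from 0.878 to 2.19 for fold enrichment and from 0.691 to 1.51 for width. Staying within them therefore says little about how stable those ratios are. The density ratio of the interval to the rest, 0.856, was 1.01 in the widened interval. The ratio of median fold enrichments, 1.14, was 0.974 without the outer 15% of the chromosome, 1.28 in the widened interval, 1.45 at a q-value of at most 1e-10 and 1.73 in the narrowed interval. The ratio of median widths, 0.970, was 1.05 at a q-value of at most 1e-10, 1.29 in the widened and 1.14 in the narrowed interval. The density of chromosome XXI relative to the other autosomes stayed between 0.778 and 0.813. The hotspot window touched a peak under each of its 3 alternatives, which are counted among the 26. They could not have changed this, because the overlapping peak passes both filters and has its summit in the window. No paired analysis was possible because the list pools all 6 libraries, and for the same reason none could be left out.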
